A study of Mus musculus with 6 samples.

Results

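The genes of the cytosolic translation initiation and elongation factors were compared between WT and Lsm14b-knockout (Lsm14b-KO) mice in fully-grown oocytes (FGOs) at the germinal vesicle stage, when meiosis has not yet resumed. The members were the rows whose gene symbol begins with Eif and a digit from 1 to 6, or with Eef and 1 or 2, without the oocyte storage factors Eif4enif1 and Eif4e1b. This rule used no measured value and gave 62 of the 24255 genes in the table, 53 Eif and 9 Eef genes. LSM14B is an oocyte RNA-binding protein, and the Lsm14b-KO females were homozygous for Lsm14b tm1a(KOMP)Mbp, a knockout-first, reporter-tagged insertion carried in every cell of the animal. Both genotypes were on a C57BL/6J background and received 5 IU of PMSG per mouse, a hormone that makes follicles grow, and oocytes were taken 46 h later. Each genotype had 3 RNA-Seq libraries of 20 FGOs, amplified by Smart-seq2, a method that makes cDNA from a few cells. The age of these females and the number of mice behind a library are not given in the labels. Values are FPKM, that is, fragments scaled to transcript length and to a measure of library size, so levels of different genes are compared here per length.

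Eukaryotic initiation factors bring the initiator tRNA, the small ribosomal subunit and the capped mRNA together. eIF4E binds the cap, eIF4G is the scaffold, eIF4A is an RNA helicase, eIF2 carries the initiator tRNA, eIF3 holds the small subunit, and eIF1 and eIF1A help to find the start codon. Elongation factors then deliver the aminoacyl-tRNAs (eEF1A, reloaded by the eEF1B subunits) and move the ribosome along (eEF2). Fully-grown oocytes no longer transcribe, and much of their mRNA is stored and translated later, so these factors act on a pool of mRNA made during growth.

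The labels were checked first. Lsm14b was at 2.78, 3.98 and 1.72 FPKM in WT replicates 1, 2 and 3, was listed at 0 in Lsm14b-KO replicates 1 and 2 and was at 0.102 FPKM in Lsm14b-KO replicate 3. All 12 oocyte markers were detected. Of 12 cumulus and granulosa cell markers, 5 were at 0 in all 6 libraries, among them Amh, Foxl2 and Cyp11a1. The summed FPKM of these 12 was 9.2 to 13.22 in the WT and 5.28 to 8.9 in the Lsm14b-KO libraries, mostly from Cyp19a1. Cyp19a1 was at 8.256 to 11.47 FPKM in WT and 3.005 to 5.76 FPKM in Lsm14b-KO. Fshr went the other way, at 0.349 to 1.682 FPKM in WT and 1.821 to 2.075 FPKM in Lsm14b-KO. Inha overlapped, at 0 to 0.204 FPKM in WT and 0.158 to 1.063 FPKM in Lsm14b-KO. The markers thus gave no common direction. The FPKM over all genes summed to 1141324 to 1244182 in the WT libraries, and to 1029728, 564671 and 676656 in Lsm14b-KO replicates 1, 2 and 3. Depth relative to WT replicate 1 was estimated at 1.03 to 1.14 in the other WT libraries and at 1.33, 1.95 and 2.17 in the Lsm14b-KO libraries. Across genes, Pearson's r of Lsm14b-KO replicate 1 was 0.952 to 0.954 with the WT libraries, 0.917 with Lsm14b-KO replicate 2 and 0.96 with Lsm14b-KO replicate 3, and that of replicates 2 and 3 with each other was 0.974. The part of depth, FPKM sums and follicle cell RNA in the differences below was not tested.

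The expression of the translation factors was very uneven. Eef1a2, the elongation factor of muscle and neurons, and the Y-linked Eif2s3y were listed at 0 in all 6 libraries, and 18 genes were above 0 but under 1 FPKM everywhere. The other 42 reached 1 FPKM in at least 1 library, 26 of them in all 6 libraries, and 14 were at 10 FPKM or more in all 6. The 8 genes of highest mean FPKM were Eif1b, Eif1ax, Eef1e1, Eif4e, Eif2b1, Eif2s2, Eif1 and Eef1a1, which together held 79% to 94.4% of the FPKM of all 62 genes, depending on the library. All 62 genes summed to 5540.1, 5124.2 and 4538.6 FPKM in the WT libraries and to 4339.5, 2040.4 and 2562.3 FPKM in the Lsm14b-KO libraries. As a share of each library's FPKM this was 0.445%, 0.437% and 0.398% in WT and 0.421%, 0.361% and 0.379% in Lsm14b-KO, so the shares of the genotypes overlapped. Several core factors were listed at low FPKM: Eef2, which moves the ribosome, at 0.177 to 1.18, and the main scaffold gene Eif4g1 at 0 to 0.175. A low or 0 value in this table may be a failed estimate, since 13 of 83 cytosolic ribosomal protein genes and 12 of 48 proteasome genes, which every cell uses, were listed at 0 in at least 1 library. The deposited loci of Eef2 and Eif4g1 are each shared with another row, a small nucleolar RNA gene overlaps each of them, and Eef2 has 1 near-identical copy, so their levels are uncertain.

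Among the 42 genes that reached 1 FPKM, 11 (26.2%) passed an adjusted p of 0.05 in limma, beside 21.6% of all 6398 genes tested in the same fit. Higher in Lsm14b-KO FGOs were 6 (14.3%, beside 6.38% of all genes): Eef1a1, Eif1a, Eif2a, Eif3l, Eif4a1 and Eif4e3. Lower were 5 (11.9%, beside 15.2% of all genes): Eef1b2, Eef1d, Eef1e1, Eif4e2 and Eif6. At an unadjusted p under 0.05 there were 21. The median difference of the 42 genes was 0.07 on the log2(FPKM + 1) scale, beside -0.08 over all tested genes, and 24 of the 42 lay above that median. The FPKM of the genotypes did not overlap in 23 of the 42 genes (54.8%), 13 higher and 10 lower in Lsm14b-KO, beside 45% of all tested genes (19.1% higher and 26% lower). The filter let 5 genes in through the Lsm14b-KO libraries alone (Eif1a, Eif2s3x, Eif3a, Eif3i and Eif4ebp3) and Eif2b3 through the WT libraries alone. Of these, Eif1a is among the 6 higher genes, and the filter favoured that call. The count of 6 and its 14.3% thus include a gene let in by the group where it is high. Eif1a, Eif2s3x and Eif3a are also among the 13 genes higher without overlap, so that count and the 54.8% have the same limit. Log2 differences on this scale understate the change of genes near or below 1 FPKM. Counts within role groups and pathway lists below stand beside these same shares of all genes.

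**Figure D1:**
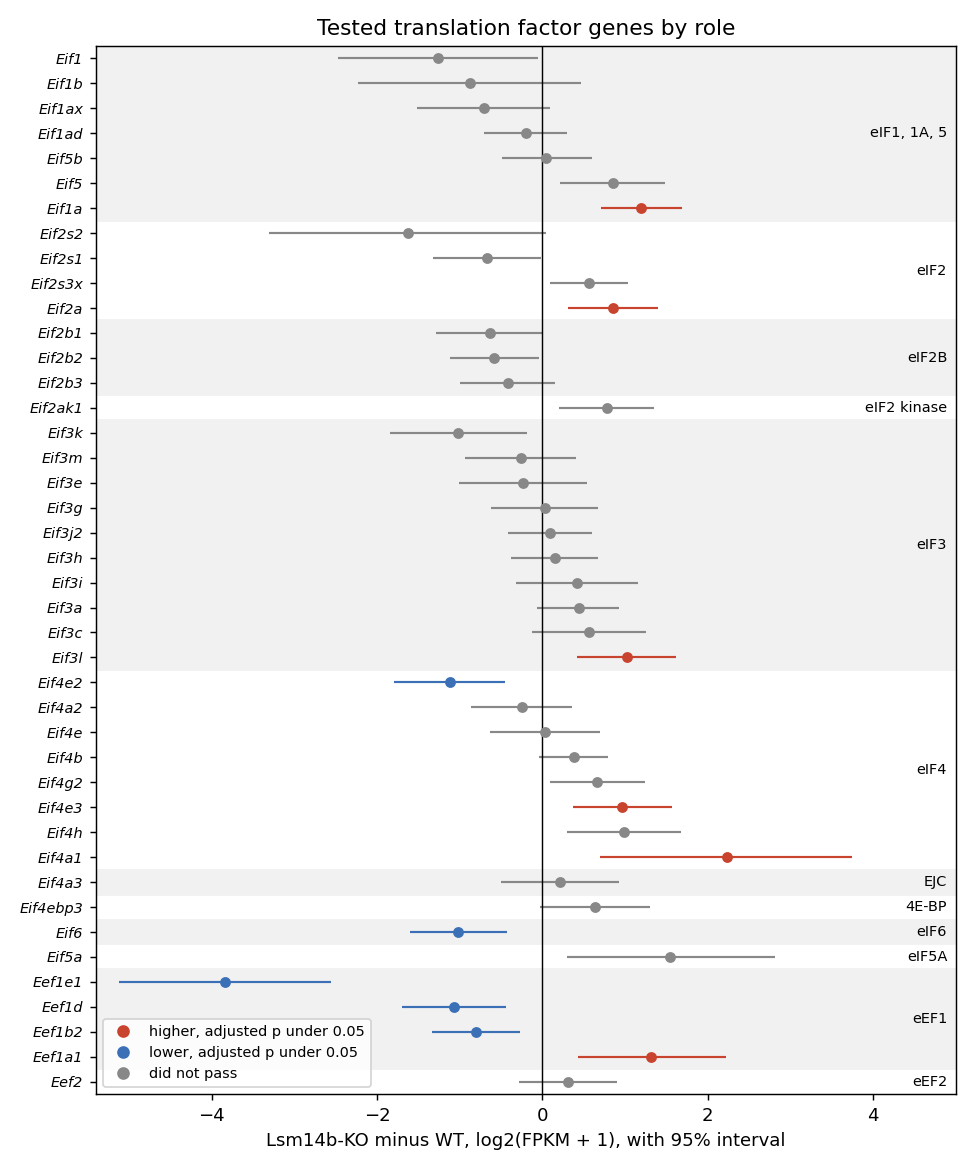
Fitted difference (Lsm14b-KO minus WT, log2(FPKM + 1), horizontal axis) with its 95% interval for each of the 42 tested translation factor genes, grouped by role along the vertical axis. Red marks the 6 genes higher and blue the 5 genes lower in Lsm14b-KO FGOs at an adjusted p under 0.05, and Eef1e1 lies far to the left of every other gene.

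How many genes passed depended on which libraries entered the fit. Without Lsm14b-KO replicate 1, 21 of the translation factor genes passed, 10 higher and 11 lower (beside 47% of all genes in either direction, 18.3% higher and 28.7% lower), and all 11 genes above were among them. Without WT replicate 1, 2 or 3, 2, 2 and 3 genes passed, beside 6.5%, 6.78% and 8.55% of all genes. Without Lsm14b-KO replicate 2 or 3, 3 and 2 passed, beside 14.8% and 5.06% of all genes. Eef1e1 and Eif1a passed in all 6 of these fits. Eif1a entered each of them only through the knockout libraries, where it was high, so its passing is not counted as support. Eif4e3 also passed without WT replicate 3, and Eif6 without Lsm14b-KO replicate 2. The median absolute log2 distance of the 42 genes from the WT mean was 0.47 in Lsm14b-KO replicate 1, 0.91 in replicate 2 and 0.73 in replicate 3, while each WT library lay 0.23 to 0.24 from the mean of the other WT libraries. Lsm14b-KO replicate 1 was the knockout library nearest to the WT mean in 20 of the 42 tested genes, among them 8 of the 11 called ones, and lay inside the WT range in 10 of the 42 tested genes. No called gene changed direction in any of the 17 alternatives.

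Scaling of the libraries moved the balance of higher and lower genes. The fit of the FPKM as deposited gave 6 higher and 5 lower. Equal library medians gave 9 and 4 (beside 8.52% of all genes higher and 13.4% lower), and a correction for transcript length and GC content gave 9 and 4 (10.2% and 12.5%). Quantile normalization gave 7 and 2 (8.44% and 11.5%). Scaling every library to the same FPKM sum (TPM scaling) gave 11 and 1 (13% and 7.6%). The share of higher calls thus rose over all genes too, from 6.38% as deposited. Each of these higher counts includes Eif1a, and the count under the length and GC correction also includes Eif4ebp3. Both genes reached 1 FPKM only in knockout libraries, so the filter favoured these calls. The median of all tested genes itself moved up by 0.48 under TPM scaling, 0.14 under quantile normalization, 0.18 under the length and GC correction and 0.06 under equal medians. The translation factor median exceeded the all-gene median by 0.15 as deposited and by 0.15 to 0.23 under the 4 other scalings. Under TPM scaling the 5 lower genes stayed below 0 at -0.35 (Eif6), -0.37 (Eef1b2), -0.41 (Eef1d), -0.71 (Eif4e2) and -3.15 (Eef1e1), of which Eef1e1 alone passed the test. Under quantile normalization Eef1b2, Eef1d and Eif6 did not pass among the lower genes, nor did Eif4a1 among the higher ones (adjusted p = 0.0522). Eef1b2 did not pass under any of the 4 other scalings (adjusted p = 0.0521 to 0.321). Spearman's rho between transcript length and the log2 difference, across genes, was 0.13 for the 42 and 0.36 for 6318, a description in which genes are not independent.

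**Figure D2:**
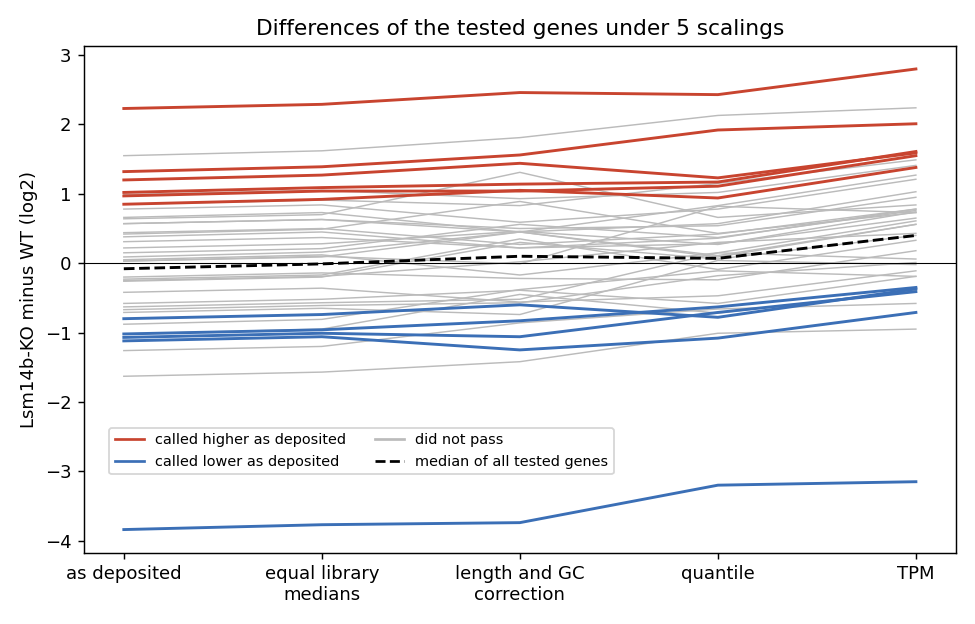
Difference of each of the 42 tested genes (vertical axis, Lsm14b-KO minus WT, log2) under 5 ways of scaling the libraries (horizontal axis), with genes called higher as deposited in red, called lower in blue and the others in grey. The dashed line is the median of all tested genes, which rises from -0.08 as deposited to 0.4 under TPM scaling, while every red line stays above 0 and every blue line below it.

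Of 6 genes named after eEF1, 4 were tested, and 3 were lower (Eef1e1, Eef1d and Eef1b2) and 1 higher (Eef1a1) in Lsm14b-KO FGOs. Over all tested genes 15.2% were lower and 6.38% higher. Eef1e1 (chr13:38644207-38659058, minus strand, GRCm38) had the largest difference of all tested translation factor genes. Despite its name it encodes AIMP3/p18, a subunit of the multi-tRNA synthetase complex, so among the subunits of eEF1 itself 2 genes were lower and 1 higher. The Eef1e1 level was 1524, 1289 and 1012 FPKM in WT and at 215, 45.2 and 67.3 FPKM in Lsm14b-KO. Every Lsm14b-KO library lay far below every WT library, and replicate 1 was the highest of the knockouts. The means were 1275 ± 257 FPKM in WT and 109 ± 92.3 FPKM in Lsm14b-KO (SD, n = 3 each), a fitted log2 difference of -3.84 (SE 0.55, limma adjusted p = 0.00473). Leaving out 1 library at a time gave -4.49 to -3.37, with adjusted p from 1.9e-05 to 0.0351.

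Eef1d and Eef1b2 encode nucleotide exchange subunits that reload eEF1A with GTP. Eef1d (chr15:75894205-75909556, minus strand) was at 32.1, 29.9 and 26.7 FPKM in WT and at 17.8, 11.2 and 12.4 FPKM in Lsm14b-KO. The groups did not overlap, and the log2 difference was -1.07 (SE 0.27, limma adjusted p = 0.0297, and 0.00167 to 0.121 with 1 library left out). Eef1b2 (chr1:63176825-63180486, plus strand) was low, at 2.12, 3.97 and 2.34 FPKM in WT and at 1.25, 0.932 and 1.25 FPKM in Lsm14b-KO. Its groups were also apart, with a log2 difference of -0.80 (SE 0.23, limma adjusted p = 0.0447, and 0.0269 to 0.142 with 1 library left out). Eef1d overlaps Naprt on the same strand, and Eef1b2 overlaps 5 annotated genes including Ndufs1 and has 1 near-identical copy elsewhere, so reads of these loci could have been split. The remaining exchange subunit gene, Eef1g, was listed at 0 in all WT libraries and at 0.145, 0.497 and 0.354 FPKM in the Lsm14b-KO libraries, below the minimum for testing. Eef1g has 4 near-identical copies.

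Eef1a1, which encodes eEF1A, the factor that carries aminoacyl-tRNAs to the ribosome, went the other way. It was at 44, 39.4 and 48.6 FPKM in WT and at 63.8, 161 and 134 FPKM in Lsm14b-KO. All Lsm14b-KO libraries lay above all WT libraries, replicate 1 by the least. The log2 difference was 1.32 (SE 0.39, limma adjusted p = 0.0455), and 1.06 to 1.72 with adjusted p of 0.000436 to 0.157 when 1 library was left out. Eef1a1 (chr9:78478449-78489151, minus strand) has 9 near-identical copies elsewhere in the genome, so its level is uncertain where reads were divided among them.

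Of the other elongation genes, Eef2 was at 0.177, 1.01 and 0.602 FPKM in WT and at 0.6, 1.18 and 1.06 FPKM in Lsm14b-KO, and the groups overlapped (log2 difference 0.31, 95% interval -0.28 to 0.90). Eef2k, the kinase that inhibits eEF2, was at 0.57 to 0.761 FPKM in WT and 0.632 to 0.773 FPKM in Lsm14b-KO and was not tested. Eif5a encodes eIF5A, which helps the ribosome past difficult peptide bonds. It was at 27.2, 31 and 47.1 FPKM in WT and at 41.9, 178 and 142 FPKM in Lsm14b-KO. Lsm14b-KO replicate 1 lay inside the WT range and the other knockout libraries far above it. The log2 difference was 1.55 (SE 0.54) and did not pass (limma adjusted p = 0.0749), but without Lsm14b-KO replicate 1 it was 2.19 with adjusted p = 0.000438, and under the length and GC correction 1.81 with adjusted p = 0.0458. Eif5a has 1 near-identical copy, so its level is uncertain, and its paralog Eif5a2 was at 0 to 0.082 FPKM.

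**Figure D3:**
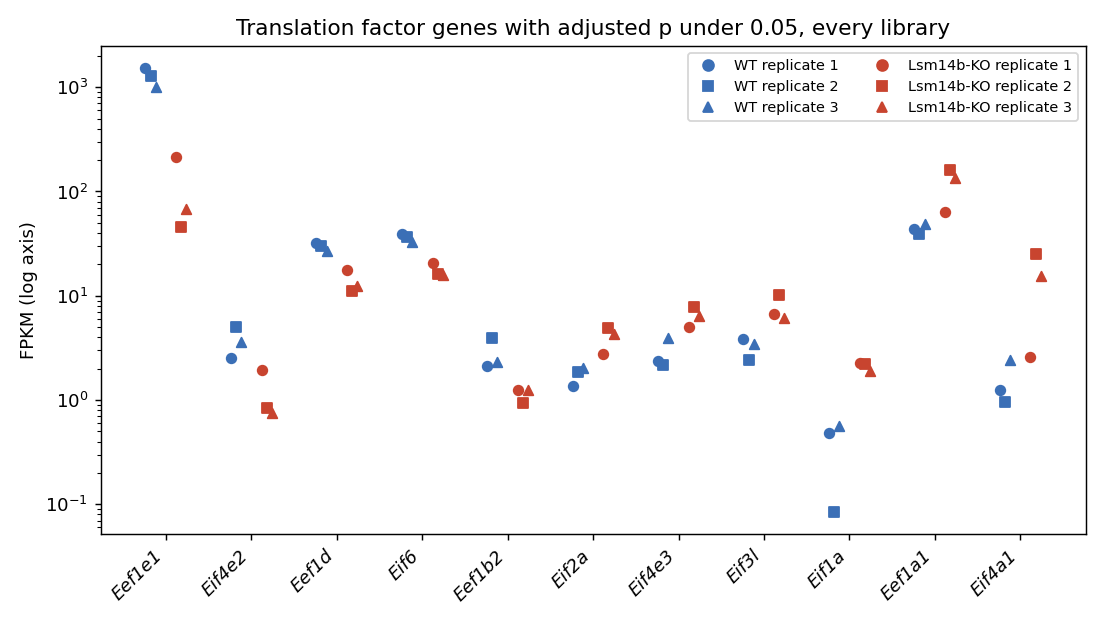
FPKM (vertical axis, log scale) of the 11 translation factor genes with an adjusted p under 0.05 in each of the 6 libraries, WT in blue and Lsm14b-KO in red, with a marker shape for each replicate number. Eef1e1 goes from 1012 to 1524 FPKM in WT to 45.2 to 215 FPKM in Lsm14b-KO, and Lsm14b-KO replicate 1 (red circle) of Eif4a1 lies just above the highest WT library.

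In the eIF4 group of cap-binding, scaffold and helicase genes, 8 of 10 were tested, with 2 higher and 1 lower (beside 6.38% and 15.2% of all genes). The main cap-binding gene Eif4e was among the most abundant, at 519, 463 and 484 FPKM in WT and at 615, 418 and 484 FPKM in Lsm14b-KO. Its groups overlapped (log2 difference 0.03, 95% interval -0.63 to 0.70, limma adjusted p = 0.936), although it passed as higher under TPM scaling (0.73, adjusted p = 0.0395) and quantile normalization (0.82, adjusted p = 0.0382). Eif4e has 1 near-identical copy and shares its deposited locus with another row, so its level is uncertain.

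The minor cap-binding genes changed in opposite directions. Eif4e2 (chr1:87213914-87240488, plus strand) encodes 4EHP, which binds the cap without recruiting eIF4G and represses translation. It was at 2.53, 4.99 and 3.62 FPKM in WT and at 1.96, 0.839 and 0.748 FPKM in Lsm14b-KO. All knockout libraries were below all WT libraries, with a log2 difference of -1.12 (SE 0.29, limma adjusted p = 0.0313, and 0.00305 to 0.127 with 1 library left out). Eif4e3 (chr6:99625135-99666771, minus strand) encodes a further cap-binding paralog and overlaps 2 annotated genes on the same strand, so reads could have been split. It was at 2.35, 2.16 and 3.91 FPKM in WT and at 4.97, 7.88 and 6.44 FPKM in Lsm14b-KO. The knockout libraries were all above the WT libraries, with a log2 difference of 0.97 (SE 0.26, limma adjusted p = 0.0352, and 0.00655 to 0.131 with 1 library left out).

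Of the eIF4A helicase genes, Eif4a1 was higher and Eif4a2 did not pass. Eif4a1 (chr11:69666936-69672423, minus strand), which encodes the general helicase eIF4A1, was at 1.26, 0.959 and 2.43 FPKM in WT and at 2.59, 25.1 and 15.6 FPKM in Lsm14b-KO. Lsm14b-KO replicates 2 and 3 were far above WT, while replicate 1 was only just above the highest WT library. The log2 difference was 2.23 (SE 0.66, limma adjusted p = 0.0475), and 1.64 to 3.07 with adjusted p of 0.000141 to 0.159 when 1 library was left out. Eif4a1 has 3 near-identical copies and 3 small annotated genes within it, so its level is uncertain. Its paralog Eif4a2 was at 56, 57.2 and 63 FPKM in WT and at 42, 53.7 and 52.5 FPKM in Lsm14b-KO. These groups were apart but close, and the log2 difference of -0.25 did not pass (limma adjusted p = 0.486) and turned positive under TPM scaling (0.43), quantile normalization (0.30) and the length and GC correction (0.02).

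The scaffolds and helicase helpers did not pass as deposited. Eif4g2, which encodes the scaffold DAP5 that lacks the eIF4E-binding part, was at 5.95, 4.36 and 3.61 FPKM in WT and at 7.98, 9.22 and 6.39 FPKM in Lsm14b-KO. These groups did not overlap (log2 difference 0.66, limma adjusted p = 0.0906), and Eif4g2 passed under TPM scaling (1.27, adjusted p = 0.0343). Eif4g3 stayed below the minimum, at 0.084 to 0.345 FPKM in WT and 0.358 to 0.439 FPKM in Lsm14b-KO. Eif4h and Eif4b, which stimulate eIF4A, had groups that did not overlap, with log2 differences of 0.99 (limma adjusted p = 0.0506) and 0.38 (limma adjusted p = 0.156). Eif4h passed under TPM scaling (1.41, adjusted p = 0.0386) and equal medians (1.05, adjusted p = 0.0419). Among the eIF4E-binding repressors, Eif4ebp3 was listed at 0 in WT replicates 1 and 2 and was at 0.551 FPKM in WT replicate 3 and at 1.07, 0.294 and 1.17 FPKM in Lsm14b-KO. These groups overlapped, and it did not pass (log2 difference 0.64, limma adjusted p = 0.14), except under the length and GC correction (1.31, adjusted p = 0.0135). Eif4ebp3 reached 1 FPKM only in knockout libraries, so the filter favoured that pass and it is not counted as support. Eif4ebp1 was at 0 to 0.714 FPKM and Eif4ebp2 at 0 to 0.305 FPKM. Eif4a3, whose product is the helicase of the exon junction complex, had a log2 difference of 0.22 (95% interval -0.50 to 0.93).

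A ratio of related transcripts within a library is not moved by a single factor per library, such as TPM scaling before the log, though quantile normalization and the length and GC correction can move it. Of these ratios, 7 were computed after the values had been seen. Eif4e2 over Eif4e was 0.00487, 0.0108 and 0.0075 in WT and 0.00318, 0.002 and 0.00155 in Lsm14b-KO, lower in every knockout library. Eif4e3 over Eif4e2 was 0.932, 0.433 and 1.08 in WT and 2.54, 9.4 and 8.6 in Lsm14b-KO, so Eif4e3 exceeded Eif4e2 in 1 WT library and in all knockout libraries. Eif4a1 over Eif4a2 was 0.0224, 0.0168 and 0.0385 in WT and 0.0615, 0.468 and 0.297 in Lsm14b-KO. Eif4a2 thus had the higher FPKM of the pair in every library. Eif4a2 has 1 near-identical copy, 7 overlapping annotated genes and a deposited locus shared with other rows, so its level is uncertain too. Eif1 over Eif1b was nearly constant in WT (0.20, 0.19 and 0.20) and lower in Lsm14b-KO (0.13, 0.16 and 0.16). The genotypes did not overlap in 6 of the 7 ratios. Every pair but Eif1 over Eif1b holds a gene called above, so this separation partly follows from those calls and is not counted as support. Eif1a over Eif1ax also uses a gene that reached 1 FPKM only in knockout libraries. Each of the 6 had a two-sided exact permutation p = 0.1 (0.117 after Benjamini-Hochberg adjustment over the 7). This is the smallest p that 3 against 3 libraries allow, so no ratio could pass 0.05. Eif4e3 over Eif4e overlapped (exact permutation p = 0.2).

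**Figure D4:**
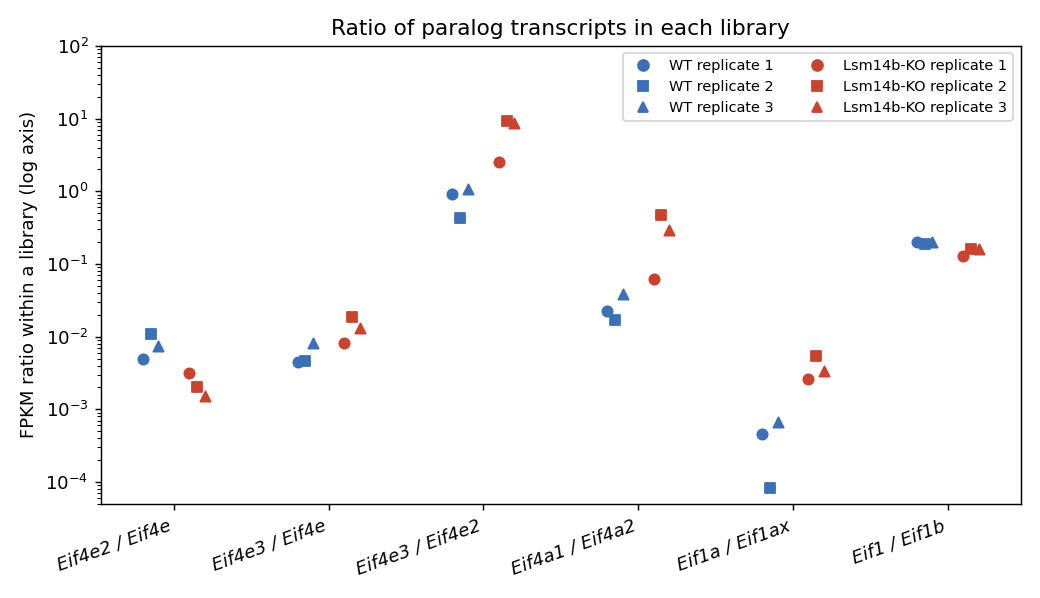
FPKM ratio of related initiation factor genes within each library (vertical axis, log scale) for 6 pairs (horizontal axis), WT in blue and Lsm14b-KO in red. The genotypes are apart in every pair but Eif4e3 over Eif4e, and Eif4a1 over Eif4a2 spans 0.0168 to 0.0385 in WT and 0.0615 to 0.468 in Lsm14b-KO.

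All 7 start codon and scanning genes were tested, and 1 of them, Eif1a, was higher in Lsm14b-KO FGOs. Eif1a is the autosomal gene of eIF1A, which binds the small subunit during scanning. It was at 0.483, 0.0845 and 0.562 FPKM in WT and at 2.25, 2.23 and 1.91 FPKM in Lsm14b-KO. On the deposited scale the knockout libraries were close to each other here, replicate 1 included. The log2 difference was 1.2 (SE 0.21, limma adjusted p = 0.00917), and 1.04 to 1.30 with adjusted p up to 0.0476 when 1 library was left out. Eif1a passed the minimum of 1 FPKM only through the knockout libraries and has 1 near-identical copy elsewhere.

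The X-linked Eif1ax, whose FPKM was far above that of Eif1a in every library, was at 1047, 1010 and 847 FPKM in WT and at 864, 410 and 575 FPKM in Lsm14b-KO. Replicate 1 lay inside the WT range and the others below it (log2 difference -0.71, SE 0.35, limma adjusted p = 0.161, and -0.99 with 0.00781 without that library), while TPM scaling brought the difference to -0.02. Eif1b, the translation factor gene of the highest mean FPKM over the 6 libraries, was at 1146, 1098 and 985 FPKM in WT and at 1544, 269 and 479 FPKM in Lsm14b-KO. Replicate 1 was above every WT library and the others were well below (log2 difference -0.88, SE 0.59, limma adjusted p = 0.285, and -1.58 with 0.00184 without replicate 1), while it was -0.19 under TPM scaling, -0.11 under quantile normalization and -0.38 under the length and GC correction. Its paralog Eif1, which encodes the eIF1 that guards start codon choice, was at 229, 208 and 197 FPKM in WT and at 201, 43.1 and 76.6 FPKM in Lsm14b-KO. It followed the same pattern with replicate 1 inside the WT range (log2 difference -1.26, SE 0.52, limma adjusted p = 0.115, and -1.86 with 0.000929 without replicate 1), and was -0.58 under TPM scaling. Eif1 has 13 near-identical copies, so its level is uncertain. Eif5, the GTPase activator of eIF2, had groups that did not overlap, at 7.39 to 7.86 FPKM in WT and 10.3 to 19.2 FPKM in Lsm14b-KO, but did not pass (log2 difference 0.85, limma adjusted p = 0.0607, and adjusted p = 0.0035 to 0.174 with 1 library left out). It passed under each of the 4 other scalings, at 0.83 to 1.49 (adjusted p = 0.0382 to 0.0466).

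In the group of eIF2 and initiator tRNA delivery, 4 of 6 genes were tested and Eif2a was higher. Eif2a (chr3:58525821-58557501, plus strand) encodes eIF2A, an alternative carrier of initiator tRNA that is distinct from the alpha subunit of eIF2. It was at 1.36, 1.84 and 2.03 FPKM in WT and at 2.78, 4.94 and 4.31 FPKM in Lsm14b-KO. The groups were apart, with a log2 difference of 0.85 (SE 0.24, limma adjusted p = 0.0394, and 0.00431 to 0.139 with 1 library left out). Eif2a overlaps Serp1 and a second annotated gene, 1 of them on the other strand, and strand use is not given in the sources used here.

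The 3 subunits of eIF2 itself did not pass. Eif2s1, the alpha subunit that stress kinases phosphorylate, was at 50.1, 53.8 and 52 FPKM in WT and at 41.9, 26.5 and 30.3 FPKM in Lsm14b-KO. The knockout libraries were all lower (log2 difference -0.67, SE 0.28, limma adjusted p = 0.117, and -0.85 with 0.00938 without Lsm14b-KO replicate 1), although TPM scaling brought the difference to 0.01. Eif2s2, the beta subunit, was at 363, 347 and 238 FPKM in WT and at 341, 35.9 and 79.4 FPKM in Lsm14b-KO. Replicate 1 was within the WT range and the other knockout libraries far below it (log2 difference -1.63, SE 0.73, limma adjusted p = 0.134, and -2.52 with 0.000703 without replicate 1), and the difference was -0.95 under TPM scaling. Eif2s3x, the X-linked gamma subunit, was at 0.605, 0.597 and 0.808 FPKM in WT and at 1.54, 1.9 and 1.05 FPKM in Lsm14b-KO, apart from WT in the other direction (log2 difference 0.57, limma adjusted p = 0.0833). Eif2s3x reached 1 FPKM only in knockout libraries, so the filter favoured this separation. Per length, the listed FPKM of the beta subunit was thus far above that of the gamma subunit in all 6 libraries. Eif2s1 has 2 near-identical copies, and Eif2s2 and Eif2s3x each have 1, so the levels of all 3 are uncertain.

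All 3 tested genes of eIF2B, the complex that reloads eIF2 with GTP, had fitted differences below 0 (-0.63 to -0.42) and none passed. Eif2b1 was at 359, 351 and 401 FPKM in WT and at 209, 231 and 279 FPKM in Lsm14b-KO. Its groups did not overlap (log2 difference -0.63, SE 0.28, limma adjusted p = 0.132), but the difference was 0.06 under TPM scaling and 0.15 under quantile normalization. Eif2b2 and Eif2b3 were at 0.293 to 2.42 FPKM, and Eif2b4 and Eif2b5 stayed below 1 FPKM. Of the 4 kinases of eIF2 alpha, only the gene of the heme-regulated kinase, Eif2ak1, reached the minimum. It was at 0.436, 1.34 and 1.27 FPKM in WT and at 2.95, 2.13 and 2.1 FPKM in Lsm14b-KO. The groups were apart, and the log2 difference of 0.78 did not pass (limma adjusted p = 0.0581), though it did under TPM scaling (1.21, adjusted p = 0.0271) and equal medians (0.84, adjusted p = 0.0483). Eif2ak2, Eif2ak3 and Eif2ak4 were at 0 to 0.14 FPKM.

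Of 14 genes of eIF3, the largest initiation factor, 10 were tested, with a median log2 difference of 0.12 and a range from -1.02 to 1.02. Eif3l (chr15:79075179-79094405, plus strand), a peripheral subunit, was the single gene that passed. It was at 3.86, 2.43 and 3.43 FPKM in WT and at 6.71, 10.2 and 6.15 FPKM in Lsm14b-KO. The knockout libraries were all higher, with a log2 difference of 1.02 (SE 0.26, limma adjusted p = 0.0299, and 0.00974 to 0.12 with 1 library left out). Eif3k, whose product pairs with eIF3L in the same part of the complex, differed in the opposite direction without passing, at 16.2 to 19.3 FPKM in WT and 4.23 to 11.8 FPKM in Lsm14b-KO (log2 difference -1.02, limma adjusted p = 0.0766, and 0.0106 to 0.2 with 1 library left out). The groups of Eif3a, the core scaffold, were also apart (log2 difference 0.44, limma adjusted p = 0.164). Eif3a reached 1 FPKM only in knockout libraries, so the filter favoured this separation. The other 7 tested subunits lay between -0.26 (Eif3m) and 0.57 (Eif3c) with overlapping groups. Eif3j2 shares its deposited locus with the near-identical Eif3j1, so the values of this pair are uncertain.

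Eif6 encodes eIF6, which binds the free large ribosomal subunit and keeps it from joining the small one too early. Eif6 (chr2:155819832-155826925, minus strand) was at 39.3, 36.4 and 32.9 FPKM in WT and at 20.4, 16.1 and 15.7 FPKM in Lsm14b-KO. All knockout libraries lay below all WT libraries, and the means were 36.2 ± 3.2 FPKM in WT and 17.4 ± 2.62 FPKM in Lsm14b-KO (SD, n = 3 each). The log2 difference was -1.02 (SE 0.25, limma adjusted p = 0.028), and -1.13 to -0.95 with adjusted p of 0.00258 to 0.122 when 1 library was left out.

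Vertebrate translation factor mRNAs often begin with a terminal oligopyrimidine (TOP) run, a stretch of C and T that begins with C at the transcription start and ties translation to growth signals. The 30 bases from 10 before to 20 from the RefSeq start were searched for an unbroken run of at least 8 C or T, led by C and beginning within 5 bases of the start on the gene's own strand. Of 49 translation factor genes with such a window, 7 held a run, beside 5.17% of 27025 genes, and of 31 tested ones 4 held a run, beside 5.64% of 4807 tested genes. These 4 windows (GRCm38.p6, RefSeq, 5′ to 3′, run in capitals) are shown because genes with a run did not share 1 outcome.
Eef1a1, chr9:78481705-78481734, minus strand: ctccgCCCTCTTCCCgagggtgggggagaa
Eif3l, chr15:79075213-79075242, plus strand: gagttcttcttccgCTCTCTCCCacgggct
Eif2s3x, chrX:94212632-94212661, minus strand: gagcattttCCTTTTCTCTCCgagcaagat
Eif2b2, chr12:85219471-85219500, plus strand: ccgagcggaagttgaCCTCTCTCggcccgg
Eef1a1 and Eif3l were higher in Lsm14b-KO, whereas Eif2s3x (0.57) and Eif2b2 (-0.58, limma adjusted p = 0.108) did not pass. The window of Eif4a1, which was also higher, held no such run, as shown for contrast.
Eif4a1, chr11:69672404-69672433, minus strand: gtaacgtcacgtcgagttgcagagcgccgg
A run is a match of letters in an annotated window, and the start used in oocytes was not measured. The windows of Eef1a1, Eif3l and Eif2s3x lie inside the GENCODE span of their gene, which for Eef1a1 begins at chr9:78489151 on the minus strand. The Eef1a1 run is thus far from that start and may not be at the start of an mRNA, so it is not read as a TOP run.

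Genes that act with these factors but fall outside the rule were counted in the same fit, by lists of pathway members. In that fit 6.38% of all genes were higher and 15.2% lower. Of 8 genes of poly(A) binding and the closed mRNA loop, 6 were tested and 2 were higher: Paip2 and Paip2b, both inhibitors of the poly(A)-binding protein. Paip2 was at 155, 167 and 220 FPKM in WT and at 282, 692 and 499 FPKM in Lsm14b-KO (log2 difference 1.36, limma adjusted p = 0.0435). Paip2b was at 3.79, 3.75 and 3.2 FPKM in WT and at 6.94, 13.2 and 8.65 FPKM in Lsm14b-KO (log2 difference 1.17, limma adjusted p = 0.0211). In both genes all knockout libraries were above all WT libraries. With 1 library left out, adjusted p was 0.000908 to 0.155 for Paip2 and 0.00194 to 0.0813 for Paip2b. Paip1, of the same list, differed in the opposite direction without passing. It was at 278, 273 and 340 FPKM in WT and at 82.4, 177 and 163 FPKM in Lsm14b-KO, and the groups were apart. Its log2 difference was -1.14 (limma adjusted p = 0.0591, and 0.015 to 0.174 with 1 library left out), and -0.45 under TPM scaling.

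Of 7 termination and recycling genes, all tested, Mcts2 was lower (-1.67, limma adjusted p = 0.00309). It was at 4.38, 2.92 and 2.77 FPKM in WT and at 0.357, 0.498 and 0.218 FPKM in Lsm14b-KO. Mcts2 thus reached 1 FPKM only in WT libraries, and the filter favoured this call. Mcts1, of the same list, overlapped between the genotypes (log2 difference 0.46, limma adjusted p = 0.321). Near-identical copies were not searched for genes outside the rule. Abce1, which splits ribosomes, was at 0.062 to 0.206 FPKM in WT and at 0.905, 1.67 and 1.37 FPKM in Lsm14b-KO. Of 9 genes of eIF2 alpha phosphatases and the stress response, 6 were tested. Impact, an inhibitor of the kinase GCN2, was at most at 0.0794 FPKM in WT and at 0.777, 1.1 and 1.13 FPKM in Lsm14b-KO. Abce1 and Impact entered the fit only through the knockout libraries where they were high, so although their adjusted p was under 0.05 they are given as levels and not counted as calls of their lists. Of 9 genes that modify eIF5A or eEF2, 5 were tested and 2 of the diphthamide genes of eEF2 were lower, Dph3 (-1.07, limma adjusted p = 0.0269) and Dph6 (-1.37, limma adjusted p = 0.0139). Dph6 was at 375, 301 and 371 FPKM in WT and at 136, 130 and 136 FPKM in Lsm14b-KO. On the deposited scale the knockout libraries, replicate 1 included, were close together and well below WT. That closeness depends on the scale, since the FPKM sums of the knockout libraries differ. Of 10 mitochondrial translation factors, 4 were tested and Mtrf1, a mitochondrial release factor gene, was lower (-2.17, limma adjusted p = 0.0128). None of the 3 tested of 11 regulators of eIF4E passed, nor did the 1 tested of 2 selenocysteine factors. Eif4enif1 (0.32, limma adjusted p = 0.308) and Eif4e1b (0.41, limma adjusted p = 0.167), the storage factors left out by the rule, did not pass either. When 1 library was left out, Mcts2 passed in all 6 fits (adjusted p 0.000883 to 0.0274). It entered each of them only through the WT libraries, where it was high, so this is not counted as support. The calls of Mtrf1, Dph6 and Dph3 were each lost in at least 2 of the 6 fits, with the highest adjusted p from 0.0686 (Mtrf1) through 0.0864 (Dph6) to 0.104 (Dph3). Under TPM scaling the log2 differences shrank to -1.34 (Mcts2), -1.67 (Mtrf1), -0.68 (Dph6) and -0.44 (Dph3).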

How the data were processed

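RNA-Seq FPKM of 3 WT and 3 Lsm14b-KO FGO libraries (20 oocytes each) were used, grouped by sample title and genotype. Per the labels and the study's methods, the authors aligned reads to mm10 with TopHat2 (version 2.0.13) and computed the deposited FPKM with Cufflinks (version 2.2.1); the gene annotation and strand use are not given in the sources used here, and the labels name different library kits. FPKM hold no counts, so no count model was fitted and no counting intervals can be given; a value of 0 can be a failed estimate. The deposited fold change, p-value and q-value columns of the authors' own comparison were not used. All columns of per-library FPKM were used (0 left out). A spreadsheet had turned 27 symbols into dates.

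FPKM were transformed to log2(FPKM + 1). The 6398 genes that reached 1 FPKM in any library were fitted with limma 3.58.1 in R 4.3.3 (eBayes with an intensity trend, genotype only, two-sided, Benjamini-Hochberg adjustment over all tested genes, threshold 0.05). The script was tested on simulated data. Nothing states that the libraries came from separate animals, so p-values measure only the spread between these libraries, which may be technical. Each library pooled oocytes, so fewer oocytes with a transcript and less of it per oocyte cannot be told apart. Members, role groups and pathway lists were chosen with earlier results of these data known. Values in all libraries are given for genes past the threshold, the 8 most abundant, and subunit or paralog groups; the other members are given by range and count. Coordinates and transcript lengths came from GENCODE vM21 (GRCm38), and lengths were found for 98.7% of tested genes. Near-identical copies of the members were searched with blastn 2.17.0 (at least 95% identity over 200 nt). Ratios within a library used an exact permutation test (scipy 1.17.1). Alternatives were pseudocounts of 0.1 and 5, other filters, scalings and variance models, the replicate number as a block, and leaving out each library.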

Additional observations from a re-analysis of the deposited data

How the results depend on the processing

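The count of translation factor genes that passed (11) was within 1.5 times that value under either pseudocount, a mean of at least 1 FPKM, the 4 other scalings and both variance models (9 to 13). It fell to 3 with no minimum of 1 FPKM (beside 5.03% of all genes), where more genes were tested, and ran from 2 to 21 when 1 library was left out. With the replicate number as a block it was 7 (beside 19.4% of all genes), of which 6 were among the 11. The numbers are not stated to pair the samples. Deviations of same-numbered WT and Lsm14b-KO libraries correlated at 0.19, -0.128 and 0.018. Of the WT libraries, only replicate 1 had the same-numbered knockout library as its best match. With 3 libraries per genotype these values cannot decide whether samples were paired. The median difference of 0.07 moved to 0.63 under TPM scaling, 0.27 under quantile normalization and 0.28 under the length and GC correction, and ran from 0.02 to 0.17 with 1 library left out. Of 423 values of 25 named genes under the 17 alternatives, 329 kept their direction and side of the threshold, 14 came to pass, 70 no longer passed and 10 changed direction, all 10 in genes that had not passed. These were Eif1ax under quantile normalization (0.037), Eif2b1 under TPM scaling (0.058) and quantile normalization (0.15), Eif2s1 under TPM scaling (0.006), Eif4a2 under TPM scaling (0.43), quantile normalization (0.30) and the length and GC correction (0.019), and Eif4e under the length and GC correction (-0.013), without WT replicate 2 (-0.004) and without Lsm14b-KO replicate 1 (-0.12, where leaving out each library gave -0.12 to 0.16). The causes were not tested. With 3 libraries per genotype, unknown depth and levels near 1 FPKM for many of these genes, small differences could not be resolved, and 16 of the 62 genes share a deposited locus with other genes.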
